A study of Mus musculus with 16 samples.

Results

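The 8 chemokine genes Ccl2, Ccl7, Ccl12, Ccl8, Cxcl2, Cxcl9, Cxcl10 and Cxcl16, of 32285 genes listed for the rejecting kidney, were followed across the leukocyte classes of a mouse kidney allograft undergoing rejection. They were chosen by name and not by a rule on a measured value, but with earlier results of these data known. The kidney data were single-cell counts of unique molecular identifiers (UMIs, each standing for 1 captured RNA molecule) from viable CD45+ cells, that is all leukocytes, taken 1 week after transplantation. The labels give strain C57BL/6J and genotype WT for every sample. The study describes this rejection model as a C57BL/6 kidney placed in a DBA/2J recipient, so donor tissue and infiltrating recipient leukocytes differ in strain. The reference was CD45+ cells of naive spleen, with no transplant, of the same labelled strain and genotype. CD8 T cell matrices of rejecting and accepted kidney grafts at 1 week, the accepted ones from DBA/2J kidneys in WT C57BL/6 recipients by the study's description, were used for 1 further comparison. Ccl8 is also given, without a test, in CD8 cells of accepted kidneys at 3 and 24 weeks and of accepted recipient spleen at 24 weeks. CD45+ cells of accepted kidneys were not analysed here.

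The kidney held 11948 cells in 2 libraries, R7K2 with 5377 cells and 13437087 UMIs and R7K3 with 6571 cells and 19552578 UMIs. The naive spleen held 47060 cells in 5 libraries of 30054753 to 37016197 UMIs each. The 2 kidney libraries shared 13 cell barcodes, and the spleen libraries shared 0.941 to 1.17% of theirs. By the study's methods each mouse was a separate sample, but the labels do not tie the library tags to mice. Between tissues or grafts, p-values measure the spread between libraries. Between classes of the kidney they measure the scatter left once class and library are accounted for. Ccl7, Ccl12 and Ccl8 are among genes not analysed here in naive spleen, whose list of 17644 genes holds 5 of the 8 members.

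Chemokines are small secreted proteins that bind G protein-coupled receptors on leukocytes and direct their movement. CCL2, CCL7 and CCL12 act on CCR2 and draw inflammatory monocytes out of the bone marrow and into tissue, and mouse CCL8 is best known as a ligand of CCR8. CXCL2 acts on CXCR2 of neutrophils. CXCL9 and CXCL10, both induced by interferon-gamma, act on CXCR3 of activated T and NK cells, and CXCL16, made as a membrane-bound protein and released by the proteases ADAM10 and ADAM17, acts on CXCR6. In kidney allografts, CXCL9 and CXCL10 are widely studied as markers of rejection. C1q-producing macrophages, Ly6C-high monocytes and arginase-expressing macrophages are myeloid states that are often told apart by the genes used here as gates.

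The promoters below are shown to print the letters of 2 motifs, those of NF-kappaB and of interferon-response factors, both known inducers of chemokine genes. The motifs did not divide the members by the signals they are known for. Each sequence is the 250 bases before the RefSeq transcription start (build GRCm38.p6), 5′ to 3′ on the gene's own strand. Capitals mark matches on either strand to 2 kinds of motif: an NF-kappaB-type motif (GGG, any 2 bases, TT, any base, CC) and an interferon-response motif (GAAA, any 2 bases, GAAA). Of 32851 promoters of this length, 4.109% held the first and 2.977% the second. A further motif was searched and is not reported here.
Cxcl2 (chr5:90903649-90903898, plus strand): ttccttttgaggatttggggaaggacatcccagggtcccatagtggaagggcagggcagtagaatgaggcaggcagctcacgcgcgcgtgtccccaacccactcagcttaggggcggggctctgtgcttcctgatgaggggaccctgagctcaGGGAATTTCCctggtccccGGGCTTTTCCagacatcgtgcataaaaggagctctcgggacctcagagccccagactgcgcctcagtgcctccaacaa
Cxcl9 (chr5:92328080-92328329, minus strand): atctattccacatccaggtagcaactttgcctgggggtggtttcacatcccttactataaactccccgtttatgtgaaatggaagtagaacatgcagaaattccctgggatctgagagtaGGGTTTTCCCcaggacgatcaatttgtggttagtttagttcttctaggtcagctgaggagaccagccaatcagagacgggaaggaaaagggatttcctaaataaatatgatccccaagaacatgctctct
Cxcl10 (chr5:92348890-92349139, minus strand): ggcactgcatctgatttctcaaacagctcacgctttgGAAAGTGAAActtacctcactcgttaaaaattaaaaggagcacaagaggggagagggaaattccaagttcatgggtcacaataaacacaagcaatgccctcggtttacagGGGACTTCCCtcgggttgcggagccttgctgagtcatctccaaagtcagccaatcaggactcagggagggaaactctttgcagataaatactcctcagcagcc
Ccl8 (chr11:82114935-82115184, plus strand): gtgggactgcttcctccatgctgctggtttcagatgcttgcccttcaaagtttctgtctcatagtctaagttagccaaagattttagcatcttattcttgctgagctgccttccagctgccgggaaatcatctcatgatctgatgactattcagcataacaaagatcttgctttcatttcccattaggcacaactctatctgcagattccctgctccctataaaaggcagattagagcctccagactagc

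Cxcl2 carried 2 NF-kappaB-type matches, GGGAATTTCC at 97 to 88 bases and GGGCTTTTCC at 78 to 69 bases before the start. Cxcl9 carried 1, GGGTTTTCCC, at 130 to 121 bases before the start. Cxcl10 carried GGGACTTCCC at 103 to 94 bases and the interferon-response match GAAAGTGAAA at 213 to 204 bases before the start. None of these letters occurred in the windows of Ccl8 and Ccl12. Such matches are descriptions of sequence and were not tested as binding sites. The promoter table had no entry for Ccl2, Ccl7 and Cxcl16. By position the members form 3 groups. Ccl2 (chromosome 11, 82035577 to 82037452), Ccl7 (82045712 to 82047525), Ccl12 (82101845 to 82103399) and Ccl8 (82115185 to 82116799) lie near one another on chromosome 11. Cxcl16 (70454389 to 70459984) lies elsewhere on chromosome 11. Cxcl2 (90903899 to 90905938), Cxcl9 (92321331 to 92328079) and Cxcl10 (92346638 to 92348889) lie on chromosome 5.

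Cells were sorted into classes by their UMIs of a few marker genes. The C1q gate asked for at least 3 UMIs of C1qa, C1qb and C1qc together and took 2434 kidney cells, the Ly6c2 gate for at least 2 UMIs of Ly6c2 and took 3634, and the Arg1 gate for at least 2 UMIs of Arg1 and took 180. Since 1361 cells passed more than 1 of the gates for C1q, Ly6c2, Arg1, Ncr1 and Cd3e, comparisons used cells that passed 1 myeloid gate and held no UMI of Cd3e, Ncr1 or Cd79a. This left 1688 C1q-only cells, 2595 Ly6c2-only cells and 41 Arg1-only cells. A further 244 NK cells (Ncr1) and 2524 T cells (Cd3e) with no myeloid gate stood beside them. The T class served as the measure of background, since T cells are not known as makers of most of these chemokines. What this background consists of, such as free RNA or mixed cells, was not tested.

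The libraries differed in which myeloid cells they held. R7K2 gave 1166 C1q-only cells and 375 Ly6c2-only cells, and R7K3 gave 522 and 2220. Arg1-only cells numbered 11 in R7K2 and 30 in R7K3. Because of this, the main test of each pair of classes had the library as a term of the model. The CPM of each member in C1q-only and Ly6c2-only cells is given by library. Shares of cells with a UMI pool both libraries unless a library is named.

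Levels are given as CPM, the UMIs of a gene per 1e6 UMIs of its class and library. The labels of the classes were checked against markers beyond the gates. The summed level of 7 macrophage genes was 13250 CPM in R7K2 and 7655 CPM in R7K3 in C1q-only cells, against 2466 and 977 CPM in Ly6c2-only cells. The summed level of 6 monocyte genes was 4477 and 4633 CPM in Ly6c2-only cells, against 1000 and 1027 CPM in C1q-only cells. In Arg1-only cells the wider arginase-macrophage list was thinly covered. Hmox1, which breaks down heme, stood at 881 and 332 CPM, but Gpnmb had no UMI in either library and Spp1 none in R7K2. The 2 libraries also held different Arg1-only cells. Ccl24, a chemokine of alternatively activated macrophages, was at 2395 CPM in R7K2 and at 0 in R7K3, and Chil3 at 936 and 22.1 CPM. Arg1-only cells are therefore called by their gate only.

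**Figure D1:**
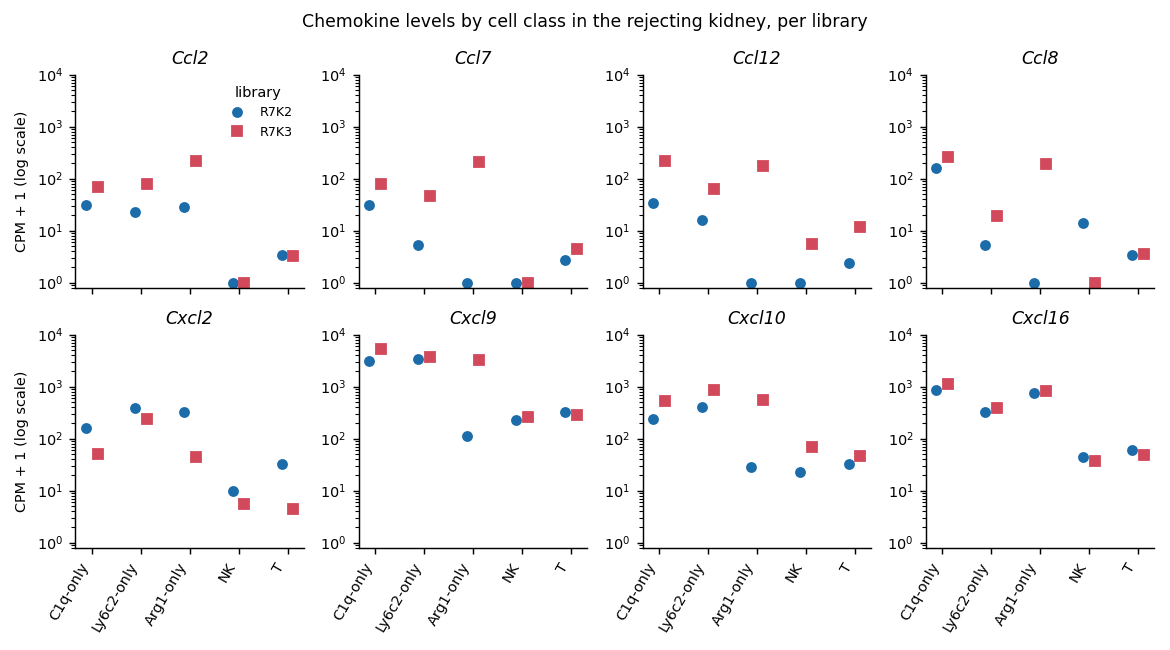
Level of each chemokine (CPM + 1, log scale) in 5 exclusive cell classes of the rejecting kidney, with a circle for library R7K2 and a square for R7K3. Ccl8 and Cxcl16 were highest in classes that passed the C1q or Arg1 gate, Cxcl2 and Cxcl10 leaned to Ly6c2-only cells among the larger myeloid classes, and NK and T cells lay below the C1q-only and Ly6c2-only classes for every member except that Ccl8 in R7K2 was higher in NK cells (3 UMIs) than in Ly6c2-only cells.

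All 8 chemokines were higher in the large myeloid classes than in T cells of the same library, but they were not spread alike over those classes. Ccl7, Ccl12, Ccl8 and Cxcl16 were higher in C1q-only than in Ly6c2-only cells, Cxcl2 and Cxcl10 were lower, and Ccl2 and Cxcl9 did not pass the test. Thus 4 of 8 members were called higher and 2 lower in C1q-only cells by edgeR's quasi-likelihood test at an adjusted p under 0.05. Of all 10707 genes tested, 7.14% were called higher and 4.74% lower, 11.9% in all. The median log2 fold change was 0.68 over the members and 0.11 over all genes. With TMM factors in place of plain totals 564 genes were called higher and 601 lower, against 765 and 508, and the same 6 members were called. In the T class each member stood at 0.965 to 9.49% of the higher of these 2 myeloid classes, library by library.

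Ccl2, the main CCR2 ligand, was at 30.4 CPM in R7K2 and 66.8 CPM in R7K3 in C1q-only cells. In Ly6c2-only cells it was at 21.3 and 78.9 CPM. The class order was opposite in the 2 libraries, and both classes were higher in R7K3. The log2 fold change of C1q-only over Ly6c2-only cells was -0.01 ± 0.30 (SE, n = 2 libraries; edgeR adjusted p = 0.996). T cells held 2.35 and 2.25 CPM, and NK cells no UMI, which allows up to 13.0 CPM in R7K2 and 13.7 CPM in R7K3 (3 counts, counting error only). C1q-only cells held 44.1% of the Ccl2 UMIs of R7K2 and 11.6% of those of R7K3, and Ly6c2-only cells held 8.16% and 51.7%. The shares of all UMIs in the same classes were 26.4% and 8.50% for C1q-only cells and 6.99% and 32.1% for Ly6c2-only cells, so the order of the Ccl2 shares followed the size of the classes in each library.

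Ccl7 and Ccl12, the other CCR2 ligands, leaned to the C1q side. Ccl7 was at 30.4 and 78.2 CPM in C1q-only cells of R7K2 and R7K3 and at 4.26 and 45.9 CPM in Ly6c2-only cells. The first class was the higher in both libraries, by a log2 fold change of 1.16 ± 0.29 (SE, n = 2; edgeR adjusted p = 0.0028). This call was lost with stricter gates (0.73, adjusted p = 0.111), with gates set after thinning (0.68, adjusted p = 0.103) and in DESeq2 (adjusted p = 0.272). Ccl12 was at 33.2 and 217.3 CPM in C1q-only cells and at 14.9 and 62.5 CPM in Ly6c2-only cells. It was again higher in C1q-only cells of both libraries (log2 fold change 1.67 ± 0.25, SE, n = 2; edgeR adjusted p = 1.5e-07). Across libraries the classes overlapped, since Ly6c2-only cells of R7K3 held more of either gene than C1q-only cells of R7K2. Ccl12 in T cells was 1.34 and 10.9 CPM, again higher in R7K3.

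In cells thinned to 1000 UMIs each, few cells held the CCR2 ligands. At least 1 UMI of Ccl2 was found in 3.38% of C1q-only cells (95% Clopper-Pearson interval 2.57 to 4.35%) and 5.82% of Ly6c2-only cells (4.95 to 6.79%), against 0.238% of T cells. Unthinned, the shares were 8.59%, 11.6% and 0.555%, at median depths of 2764, 2478 and 2052 UMIs. These shares pool both libraries, and the class order of the thinned Ccl2 shares was opposite in R7K2 and R7K3. In R7K2, thinned cells with Ccl2 were 31 of 1166 C1q-only and 6 of 375 Ly6c2-only cells. In R7K3 they were 26 of 522 and 145 of 2220. Ccl7 was found in 2.84% and 2.16% of the thinned cells of the 2 myeloid classes and Ccl12 in 6.58% and 3.66%, against 0.119% and 0.475% of T cells. These intervals and floors cover counting error only.

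The CCR2 ligands were at times found in the same cells, most clearly among Ly6c2-only cells of R7K3, which numbered 2220. Among Ly6c2-only cells of R7K3, thinned alike, 26 of 56 cells with Ccl7 also held Ccl2 (46.4%), against 5.50% of the cells without Ccl7. Ccl12 was found in 17 of the 56 (30.4%), against 3.56% of the others. Cxcl2 and Cxcl10 were found in 12.5% and 32.1% of the Ccl7-positive cells and in 8.64% and 34.4% of the rest. In Ly6c2-only cells of R7K2 no cell held Ccl7, and none of 6 cells with Ccl2 held Ccl12. In C1q-only cells Ccl2 was found in 2 of 25 cells with Ccl7 in R7K2 (8%, against 2.54% of the others) and in 4 of 23 in R7K3 (17.4%, against 4.41%). The cells of 1 library are not replicates, so these shares are given without a test.

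Ccl8 had the largest difference between C1q-only and Ly6c2-only cells of the 8 members. It was at 161.2 CPM in R7K2 and 261.8 CPM in R7K3 in C1q-only cells, and at 4.26 and 17.8 CPM in Ly6c2-only cells. The groups were far apart in both libraries. The log2 fold change was 4.08 ± 0.27 (SE, n = 2; edgeR adjusted p = 4.3e-22). T cells stood at 2.35 and 2.53 CPM, and NK cells of R7K2 held 3 UMIs. C1q-only cells held 57.6% of the 1749 Ccl8 UMIs of the graft and Ly6c2-only cells 6.63%. A further 14.7% lay in cells outside these classes that held a UMI of Cd3e, Ncr1 or Cd79a. In R7K2 that share was 21.5%, where such cells held 13.3% of all UMIs, and no doublet caller was run.

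Few cells carried most of it. Of 4766 cells that passed a myeloid gate with no lymphoid UMI, 227 held a UMI of Ccl8, and 31 cells with at least 10 UMIs held 64.7% of the total. These 31 came from both libraries, 17 from R7K2 and 14 from R7K3, and the highest cell held 94 UMIs. After thinning, 4.98% of C1q-only cells (3.99 to 6.12%) held Ccl8 against 0.886% of Ly6c2-only cells and 0.357% of T cells. In cells that passed both the C1q and the Arg1 gate, Ccl8 was at 602.9 CPM in R7K2 (30 cells) and 143.0 CPM in R7K3 (9 cells). In cells with C1q and Ly6c2 it was at 128.3 and 74.7 CPM.

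Cxcl2, the neutrophil chemoattractant, ran the other way. In Ly6c2-only cells it was at 386.3 CPM in R7K2 and 241.7 CPM in R7K3, and in C1q-only cells at 159.0 and 49.4 CPM. Ly6c2-only cells were the higher in both libraries. The log2 fold change of C1q-only over Ly6c2-only cells was -1.84 ± 0.23 (SE, n = 2; edgeR adjusted p = 6.8e-10). Unlike the CCR2 ligands, Cxcl2 was higher in R7K2 in both classes. T cells of R7K2 also held more, 31.9 CPM against 3.37 CPM in R7K3.

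Cxcl2 UMIs were concentrated less than those of Ccl8, of which 18 gated cells held 50%. Of the 4766 gated myeloid cells 586 held a UMI, and 87 cells with at least 10 UMIs held 50.2% of the total. After thinning, 9.52% of Ly6c2-only cells (8.42 to 10.7%) and 6.34% of C1q-only cells (5.22 to 7.61%) held Cxcl2, against 0.872% of T cells. Of 5 neutrophil markers, S100a8 and S100a9 had the same order. The summed level of S100a8, S100a9, Retnlg, Csf3r and Cxcr2 was 1007 and 679 CPM in Ly6c2-only cells against 104 and 93.9 CPM in C1q-only cells. S100a8 made up most of the difference, at 482 CPM over both libraries against 8.63 CPM. Csf3r was at 82.0 and 97.8 CPM against 92.3 and 72.2 CPM, with opposite orders in the 2 libraries, and Retnlg and Cxcr2 were at no more than 3.19 CPM in either class and at 0 in C1q-only cells of R7K3. The 9 ungated kidney cells that were high in S100a8 and S100a9 held Cxcl2 at 1846 and 2200 CPM. The part of such cells in the difference between the classes was not tested in that comparison.

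Cxcl9 gave by far the most UMIs of the 8 members, and no difference between the 2 large myeloid classes passed the test. Its level in C1q-only cells was 3161 CPM in R7K2 and 5307 CPM in R7K3. In Ly6c2-only cells it was 3383 and 3691 CPM. The order of the 2 classes was opposite in the 2 libraries, and the log2 fold change was 0.20 ± 0.25 (SE, n = 2; edgeR adjusted p = 0.722). Myeloid cells outside all gates held 2652 and 4256 CPM and ungated dendritic cells 1599 and 2909 CPM. C1q-only cells held 40.2% of the Cxcl9 UMIs of R7K2 and 15.4% of those of R7K3, Ly6c2-only cells 11.4% and 40.5%, and ungated myeloid, dendritic and S100-high cells together 23.8% and 22.5%. The first 2 shares changed order between libraries, as the shares of all UMIs in these classes did.

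Most myeloid cells held Cxcl9. After thinning, at least 1 UMI was found in 78.2% of C1q-only cells (76.2 to 80.1%) and 73.6% of Ly6c2-only cells (71.8 to 75.3%), both libraries pooled. By library these were 861 of 1166 C1q-only and 220 of 375 Ly6c2-only cells in R7K2. In R7K3 they were 459 of 522 and 1689 of 2220. Within each library the gap was wider than in the pooled shares, and a larger share of C1q-only cells held Cxcl9. The shares were not tested. T cells, at 321 and 287 CPM, held it in 12.2% of thinned cells (10.9 to 13.5%) and 20.9% of unthinned ones, which was read as background. NK cells held 230 and 255 CPM. In gated myeloid cells 1917 cells with at least 10 UMIs held 83.4% of the total, so the RNA was spread over many cells and not over a few as for Ccl8.

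Cxcl10, the other CXCR3 ligand, did differ between the classes. It was at 405.5 and 844.0 CPM in Ly6c2-only cells of R7K2 and R7K3, and at 234.7 and 540.5 CPM in C1q-only cells. Ly6c2-only cells were the higher in both libraries (log2 fold change of C1q-only over Ly6c2-only cells -0.71 ± 0.20, SE, n = 2; edgeR adjusted p = 0.0077), and R7K3 was the higher library in both classes. DESeq2 did not call it (-0.78, adjusted p = 0.55). Thinned shares were 32.4% of Ly6c2-only cells (30.6 to 34.3%) and 19.3% of C1q-only cells (17.4 to 21.2%), against 2.42% of T cells. These shares pool both libraries. In R7K2, 79 of 375 Ly6c2-only and 167 of 1166 C1q-only cells, thinned alike, held Cxcl10. In R7K3 they were 763 of 2220 and 158 of 522. The order was the same in each library, with a smaller gap than in the pooled shares. Cells with Cxcl10 also held Cxcl9 more often. Among Ly6c2-only cells of R7K3, Cxcl9 was found in 86.2% of cells with Cxcl10 and in 70.8% of cells without. Among C1q-only cells of that library the shares were 93.7% and 85.4%.

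Cxcl16, the CXCR6 ligand, was higher in C1q-only cells but well above background in both classes. It was at 846.4 CPM in R7K2 and 1146 CPM in R7K3 in C1q-only cells, and at 321.4 and 390.5 CPM in Ly6c2-only cells. The 4 values did not overlap between classes. The log2 fold change was 1.48 ± 0.19 (SE, n = 2; edgeR adjusted p = 2.9e-09). After thinning, 54.3% of C1q-only cells (51.9 to 56.7%) and 25.8% of Ly6c2-only cells (24.1 to 27.5%) held it, against 3.57% of T cells. Only 85 gated myeloid cells held 10 or more UMIs, and they held 10.7% of the total, so Cxcl16 was the most evenly spread member after Cxcl9 by the number of cells with a UMI, 2937 against 4112 of 4766.

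**Figure D2:**
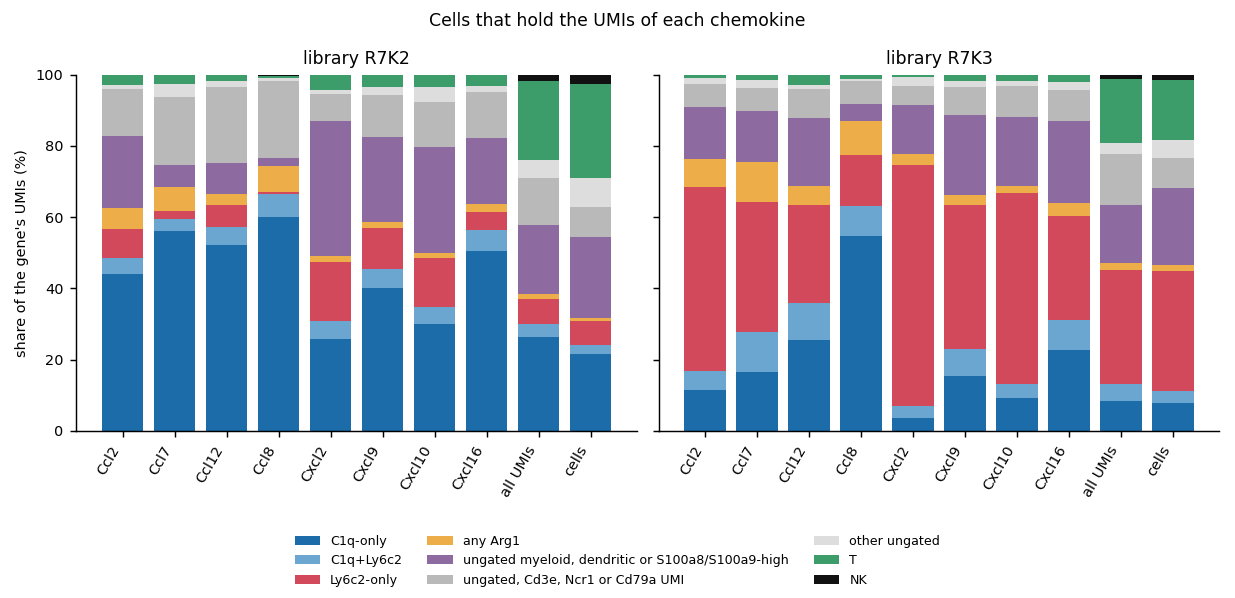
Share of each chemokine's UMIs (%, stacked to 100) held by each group of kidney cells, with the shares of all UMIs and of all cells beside them, 1 panel per library. In R7K2 C1q-only cells held 60% of Ccl8 and in R7K3 54.8%, while the share of Ccl2 in Ly6c2-only cells went from 8.16% in R7K2 to 51.7% in R7K3, where these cells were far more numerous.

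Arg1-only cells held Cxcl16 in both libraries and most other members at levels that differed between libraries. The tests rested on 41 cells and in part on 1 library. Against Ly6c2-only cells, Ccl7, Ccl8 and Cxcl16 were called higher and Cxcl9 lower in Arg1-only cells, 4 of 8 members, where 1.12% of all genes tested were called (0.747% higher and 0.374% lower). Against C1q-only cells Cxcl9 alone was called, lower, where 0.504% of all genes were called. DESeq2 called none of the 8 in either comparison, and gave 966 and 551 of all 10707 genes an unadjusted p under 0.05. Leaving the library out of the model called none either (766 and 531 genes). The counts of 551 and 531, both against C1q-only cells, are close to the share of 0.05 that chance alone gives. With TMM factors the median gene moved from 0.03 to -0.30 in the first comparison, where 37 genes were then higher and 108 lower against 80 and 40. Of the members 2 were then higher (Ccl7 and Ccl8) and 3 lower (Cxcl2, Cxcl9 and Cxcl10). With gates set after thinning 3 were higher and 2 lower, the latter being Cxcl2 and Cxcl10. In that setting 91 of 10166 genes were higher and 60 lower.

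Cxcl16 was higher than in Ly6c2-only cells in both libraries. It was at 743 CPM in R7K2 and 818 CPM in R7K3 in Arg1-only cells, against 321.4 and 390.5 CPM (log2 fold change 1.13 ± 0.24, SE, n = 2; edgeR adjusted p = 0.0029), although not called with TMM factors (0.78, adjusted p = 0.136). Ccl7 was at 0 in R7K2, where 3 counts would be 82.6 CPM, and at 210 CPM in R7K3 (19 UMIs), and the log2 fold change over Ly6c2-only cells was 2.17 ± 0.51 (SE, n = 2; edgeR adjusted p = 0.0101). Ccl8 was likewise at 0 and at 188 CPM (17 UMIs; log2 fold change 3.20 ± 0.56, SE, n = 2; edgeR adjusted p = 1.1e-04). Both differences were therefore seen in R7K3 only, where Ly6c2-only cells held 45.9 and 17.8 CPM. Cxcl9 was at 110 CPM in R7K2 (4 UMIs) and 3260 CPM in R7K3, against 3383 and 3691 CPM in Ly6c2-only cells, so that its lower level came from the 11 cells of R7K2 (log2 fold change -1.08 ± 0.29, SE, n = 2; edgeR adjusted p = 0.0354). It was not called with stricter gates (-0.39, adjusted p = 0.551), and with gates set after thinning the value turned to 0.10. Against C1q-only cells the value was -1.28 ± 0.29 (SE, n = 2; edgeR adjusted p = 0.0103) and rested on the same 11 cells. That call was lost with the gates as first written (-0.34, adjusted p = 0.663) and with gates set after thinning (-0.26, adjusted p = 0.825).

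Ccl2 and Ccl12 in Arg1-only cells of R7K3 were at 221 and 177 CPM, against 78.9 and 62.5 CPM in Ly6c2-only cells, and did not pass the test (edgeR adjusted p = 0.117 and 0.26). Cxcl2 was at 330 and 44.2 CPM and Cxcl10 at 27.5 and 541 CPM. In R7K3 the 46 cells with both Ly6c2 and Arg1 held the CCR2 ligands at levels of the same order, 236 CPM of Ccl2, 296 CPM of Ccl7 and 242 CPM of Ccl12. With all 180 cells of the Arg1 gate, whatever else they held, Ccl2 was at 54.2 CPM in R7K2 and 160 CPM in R7K3, against 22.9 and 65.8 CPM in the whole Ly6c2 gate. The log2 fold change was 1.27, with an edgeR adjusted p of 0.0021. In that setting 5 of 8 members were called higher, where 117 of 11791 genes were higher and 86 lower, although the gates share cells.

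**Figure D3:**
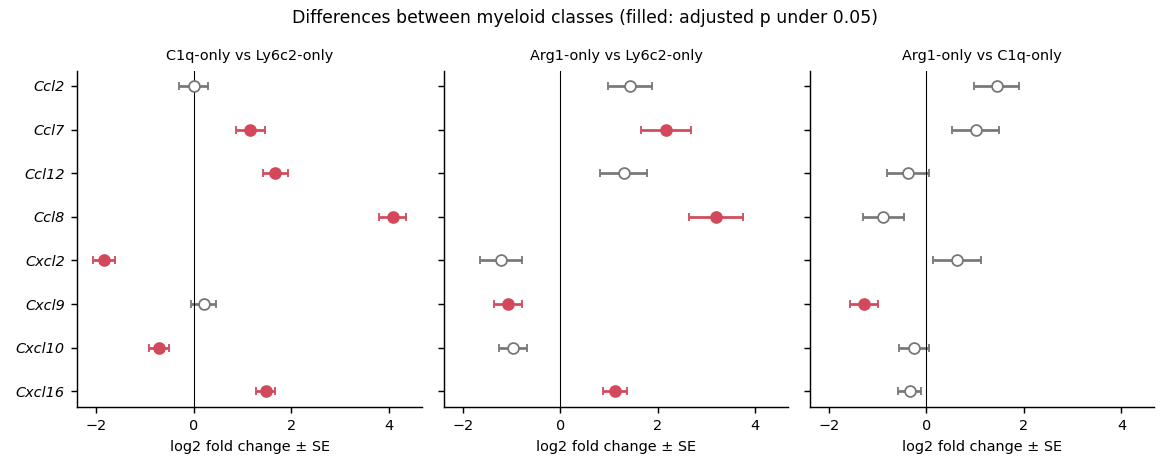
Log2 fold change of each chemokine between pairs of myeloid classes of the rejecting kidney, with bars for 1 standard error. Filled points passed an edgeR adjusted p of 0.05. C1q-only against Ly6c2-only cells ran from 4.08 for Ccl8 to -1.84 for Cxcl2, and the comparisons with Arg1-only cells had wider bars.

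Receptors for these ligands were read in the same cells. Of 13 receptor genes, 6 passed the filter on low counts. Ccr1 and Ccr2 were lower in C1q-only than in Ly6c2-only cells, and none was higher, where 4.74% of all genes were lower and 7.14% higher. Ccr2, which takes up CCL2, CCL7 and CCL12, was at 547 and 565 CPM in C1q-only cells and at 858 and 751 CPM in Ly6c2-only cells (log2 fold change -0.53, edgeR adjusted p = 0.0454). Ccr1 was at 205 and 99.9 CPM against 383 and 263 CPM (log2 fold change -1.14, edgeR adjusted p = 2.9e-06). The CXCR3 and CXCR6 genes were on the lymphoid side. Cxcr3 was at 47.7 and 70.7 CPM in T cells and 8.67 and 27.3 CPM in NK cells, against at most 3.94 CPM in C1q-only and Ly6c2-only cells. Cxcr6 was at 293 and 205 CPM in T cells. Ccr8 was at 10.7 and 9.26 CPM in T cells, with 2 UMIs in all C1q-only cells and 1 in Ly6c2-only cells. Cxcr2, the receptor of CXCL2, had 1 and 6 UMIs in the 2 myeloid classes and 2 in T cells.

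**Figure D4:**
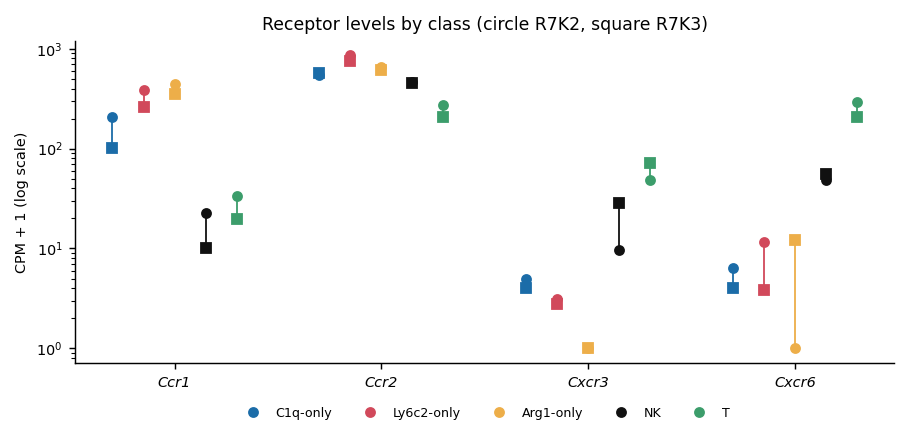
Level of 4 chemokine receptors (CPM + 1, log scale) in 5 classes of the rejecting kidney, with a circle for library R7K2 and a square for R7K3 joined by a line. Ccr1 was highest in the myeloid classes, and Cxcr3 and Cxcr6 were highest in T cells.

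The genes known to drive or accompany these chemokines were read from fixed lists. Of all 10707 genes tested, 7.14% were called higher and 4.74% lower in C1q-only than in Ly6c2-only cells. Ifng, the inducer of Cxcl9, was at 206 and 185 CPM in T cells and 91.1 and 63.8 CPM in NK cells, against at most 4.26 CPM in C1q-only and Ly6c2-only cells. Of 10 interferon-induced genes tested, 1 was higher in C1q-only than in Ly6c2-only cells (Gbp2b) and 4 were lower (Gbp2, Isg15, Rsad2 and Ifit3). Isg15, an antiviral ubiquitin-like protein, was at 96.0 and 131 CPM against 244 and 314 CPM. Of 10 NF-kappaB-induced genes, 4 were lower in C1q-only cells and none was higher: Il1b, Tnf, Nfkbia and Nfkb1. Il1b, a cytokine of inflammatory monocytes, was at 426 and 140 CPM against 894 and 479 CPM, with the same order of libraries as Cxcl2. Of 11 upstream cytokine and receptor genes 3 were lower (Il1b, Tnf and Tnfrsf1a). Adam10 and Adam17, which release CXCL16, were at 181 and 296 CPM and at 252 and 289 CPM in C1q-only cells and did not pass the test between classes.

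Of 36 other chemokine genes, 11 could be tested between the 2 large classes. Ccl5 and Cxcl14 were higher and Ccl3, Ccl4, Ccl6 and Ccl9 lower in C1q-only cells, where 7.14% of all genes were higher and 4.74% lower. Ccl9, a chemokine of myeloid cells, was at 23.4 and 18.7 CPM against 96.9 and 67.7 CPM. Ccl5, which is made mainly by NK and T cells, was at 9337 and 6198 CPM in NK cells and at 196 and 227 CPM in C1q-only cells, so its call between myeloid classes stood on a small share of the NK level.

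Across 10 classes of the kidney, the genes most like each member were sought among 5425 genes by the smaller of the 2 libraries' Pearson correlations of log2(CPM + 1). The classes share their libraries and differ in size, so this is a description. Ccl8 was closest to Ccnd1 (r = 0.913), Cxcl14 (0.875) and Mertk (0.849), the last a receptor by which macrophages take up dying cells. Cxcl16 was closest to Tgfbi (0.962), Ly86 (0.957) and Msr1 (0.955), the last a scavenger receptor of macrophages. Cxcl9 was closest to Cnn3 (0.978), Slco3a1 (0.946) and Cysltr1 (0.931), and Cxcl10 to Gm4951 (0.950), 1600014C10Rik (0.944) and Gngt2 (0.944). Cxcl2 was closest to the interferon-induced gene Ifit2 (0.940), with Polr2l (0.924) and Ms4a4c (0.916) next. Ccl7 and Ccl12 shared Myh10 (0.897 and 0.927) and Gm17268 (0.883 and 0.913), with Tlr13 (0.887) for the first and Trim30d (0.914) for the second. Ccl2 was closest to Aldh3b1 (0.929), Cd302 (0.925) and Ctnnd1 (0.908).

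The class of all myeloid cells had lower levels of the 5 readable members in naive spleen than in the kidney. Some kinds of spleen cells still held them. Pooled over spleen libraries, 284 ungated cells high in S100a8 and S100a9 held Cxcl2 at 766 CPM, with 64.9% of the spleen's Cxcl2 UMIs. The 176 ungated dendritic cells of the spleen held Cxcl9 at 202 CPM and Cxcl16 at 126 CPM. Ungated kidney cells of the same kinds were higher in Cxcl2 and Cxcl9, as given above. All myeloid cells, defined in both tissues by Lyz2 or Csf1r with no lymphoid UMI, numbered 6985 in the kidney and 943 in the spleen. Ccl2, Cxcl2, Cxcl9, Cxcl10 and Cxcl16 were all called higher in the kidney, where 27.2% of all 10001 genes tested were called higher and 44.2% in either direction. The members' median log2 fold change was 4.96 against 0.12 over all genes. With TMM factors 2451 genes were higher and 2114 lower, against 2723 and 1702, and the 5 were still called. Both kidney libraries lay above all 5 spleen libraries for each of the 5, as they did for 30.1% of all genes tested. Tissue, transplant, recipient strain and processing run cannot be told apart in this comparison.

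Cxcl9 was at 3000 and 4176 CPM in kidney myeloid cells. In the 5 spleen libraries it ran from 6.67 to 91.4 CPM with a median of 17.1 CPM. The log2 fold change was 6.62 ± 0.74 (SE, n = 2 and 5; edgeR adjusted p = 2.5e-05). Cxcl10 was at 288 and 725 CPM against 1.98 to 11.9 CPM, median 6.85 CPM (log2 fold change 6.40 ± 0.39, edgeR adjusted p = 3.6e-07). Cxcl16 was at 592 and 630 CPM against 11.9 to 39.6 CPM, median 18.3 CPM (log2 fold change 4.96 ± 0.32, edgeR adjusted p = 4.3e-07). For these 3 genes the lowest kidney library was many times the highest spleen library.

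Ccl2 and Cxcl2 differed less. Ccl2 was at 26.9 and 71.7 CPM against 0 to 18.4 CPM, with 3 of 5 spleen libraries at 0 (log2 fold change 2.65 ± 0.64, edgeR adjusted p = 0.0051). The call was lost without R7K3 (1.81, adjusted p = 0.11) and in DESeq2 (3.02, adjusted p = 0.25). Cxcl2 was at 170 and 252 CPM against 4.57 to 89.3 CPM, median 23.8 CPM (log2 fold change 2.36 ± 0.50, edgeR adjusted p = 0.0023). Neutrophil markers were far higher in the spleen cells, with a summed level of 3938 to 91420 CPM against 301 and 466 CPM in the kidney. When cells high in S100a8 and S100a9 were left out, a choice made after seeing the data, the spleen kept 18 of its 248 Cxcl2 UMIs, while Ccl2 kept all 41, Cxcl9 113 of 114, Cxcl10 24 of 28 and Cxcl16 82 of 83. The Cxcl2 fold then went from 5.12 to 41.0.

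Within gates the direction was again upward in the kidney. In C1q cells of both tissues, Cxcl9 was at 3160 and 5059 CPM in the kidney and at 0 to 119 CPM in the spleen (log2 fold change 6.50 ± 0.52, edgeR adjusted p = 2.3e-07). Cxcl10 was at 239 and 506 CPM against 0 to 23.5 CPM (5.22 ± 0.59, edgeR adjusted p = 5.2e-06), and Cxcl16 at 827 and 1014 CPM against 11.8 to 78.2 CPM (4.82 ± 0.43, edgeR adjusted p = 6.3e-07). Cxcl2 was at 168 and 60.2 CPM against 0 to 39.2 CPM (2.44 ± 0.57, edgeR adjusted p = 0.0028), and this call was lost without R7K2 (1.61, adjusted p = 0.151) and in DESeq2 (2.76, adjusted p = 0.261). Without cells high in S100a8 and S100a9 the spleen kept 1 of its 28 Cxcl2 UMIs in this gate and went from 23.0 to 0.885 CPM, while the kidney stayed at 126 CPM with all 866 UMIs (log2 fold change 6.85, edgeR adjusted p = 2.5e-06). All 4 members tested were called higher, where 25% of the 5456 genes were and 39.3% were called in either direction, and 28.1% of genes had both kidney libraries above all spleen libraries. Ccl2, with 7 UMIs in the spleen cells of this gate, did not pass the filter.

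In Ly6c2 monocytes, gated with Lyz2 in both tissues, all 5 members were called higher in the kidney, where 26.9% of 8824 genes were and 39.9% were called in either direction. The name stands for the gate only, since the spleen cells of this gate also held neutrophil markers. All but Ccl2 had both kidney libraries above all spleen libraries, and so had 26.9% of genes. Cxcl10 was at 355 and 803 CPM against 0 to 8.98 CPM (log2 fold change 6.58 ± 0.40, edgeR adjusted p = 2.3e-09). Cxcl16 was at 460 and 455 CPM against 0 to 11.2 CPM (6.55 ± 0.34, edgeR adjusted p = 2.8e-10). Cxcl2 was at 334 and 222 CPM against 0 to 21.4 CPM (4.04 ± 0.36, edgeR adjusted p = 1.6e-07). Cxcl9 was at 3355 and 3931 CPM against 0 to 23.8 CPM, the highest spleen value being 1 UMI in a library with 9 such cells. In all it had 33000 UMIs in the kidney cells and 3 in the spleen cells, a pooled ratio of 3194 with a 95% interval of 1093 to 15490 that covers counting error only and not the spread between libraries. The fitted log2 fold change was 11.45 ± 0.48 (edgeR adjusted p = 3.3e-11), and it ran from 10.64 without NS1 to 12.20 without NS3, which held 2 of the 3 spleen UMIs. Ccl2 overlapped, at 21.7 and 81.4 CPM against 0 to 25.9 CPM. Its call (1.97 ± 0.54, edgeR adjusted p = 0.0079) was lost without R7K3 (0.66, adjusted p = 0.521) and in DESeq2 (2.20, adjusted p = 0.13). The summed neutrophil markers of these spleen cells ran from 129 to 127486 CPM, against 748 and 609 CPM in the kidney, and without cells high in S100a8 and S100a9 the Cxcl2 fold went from 16.5 to 27.5. All 5 members were still called without those cells. Pooled over spleen libraries, Ccl2 then went from 14.8 to 22.0 CPM with all 37 UMIs kept.

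Genes of the same pathways were read alongside in the Ly6c2 monocytes, where 26.9% of all genes were called higher. Cells high in S100a8 and S100a9 were kept in for these values. Of 10 interferon-induced genes tested 9 were higher in the kidney and none lower, among them Irf1 (log2 fold change 3.20) and Socs1 (3.48). Of 9 NF-kappaB-induced genes 6 were higher, among them Tnf (3.12), Il1b (2.81) and Tnfaip3 (2.27), and none was lower. Adam10 (1.14) and Adam17 (1.65) were both higher. Ccr2 was lower (-0.66). Ifngr1, a chain of the interferon-gamma receptor, was lower (-1.51). In C1q cells 5 of 8 interferon-induced genes were higher and none lower. Of 9 NF-kappaB-induced genes 2 were higher and none lower there, a share no larger than the 25% of all genes called higher in that comparison.

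**Figure D5:**
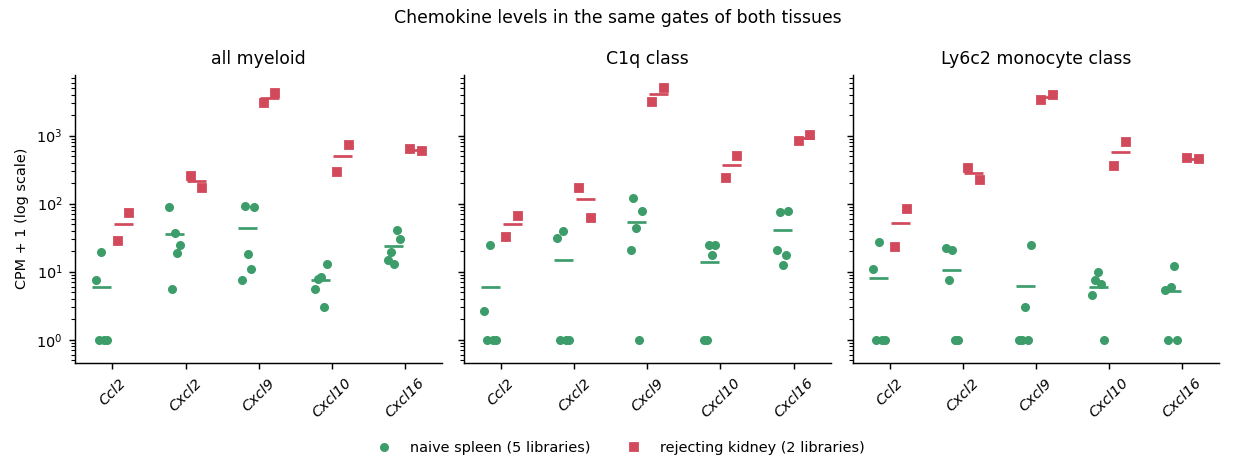
Level of the 5 chemokines listed in both tissues (CPM + 1, log scale), for all myeloid cells, C1q cells and Ly6c2 monocytes, with 1 point per library (2 of rejecting kidney, 5 of naive spleen). Kidney points of Cxcl9, Cxcl10 and Cxcl16 lie above every spleen point in all 3 panels, and Ccl2 in Ly6c2 monocytes is the 1 place where the tissues overlap.

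Rejecting and accepted grafts were compared in CD8 T cells, since CD45+ cells of accepted grafts were not analysed here. By the study's description the grafts also differ in donor and recipient strain. Outcome and strain therefore cannot be told apart in this comparison. The members were low there. All 2184 CD8 cells of the rejecting kidney are also among its CD45+ cells, so free RNA of the myeloid cells can enter these values too. The T class of R7K2 and R7K3 held more than the CD8 cells. It was at 321 and 287 CPM for Cxcl9, 58.5 and 48.3 CPM for Cxcl16, and 31.6 and 46.3 CPM for Cxcl10. The reason for this gap was not tested. Of 7 members tested, Cxcl9 and Cxcl16 were called higher in rejecting than in accepted kidneys at 1 week and Cxcl10 lower, where 48.8% of 12533 genes were called higher and 10.5% lower, 59.3% in all. Cxcl9 was at 74.0 and 56.1 CPM in the rejecting libraries against 7.77, 3.82 and 11.1 CPM in the accepted ones (log2 fold change 3.08 ± 0.37, SE, n = 2 and 3; edgeR adjusted p = 1.6e-04). Cxcl16 was at 13.0 and 11.7 CPM against 3.36, 1.91 and 4.04 CPM (1.96 ± 0.34, edgeR adjusted p = 0.0013). Cxcl10 was at 7.57 and 7.46 CPM against 17.2, 14.0 and 19.1 CPM (-1.16 ± 0.25, edgeR adjusted p = 0.004). The 2 CXCR3 ligands therefore went opposite ways. The median gene was 0.70 higher on this scale with plain totals and 0.01 with TMM factors, and with TMM factors 3443 genes were higher and 3222 lower, against 6119 and 1317. The values of Cxcl9, Cxcl16 and Cxcl10 were then 2.40, 1.28 and -1.84, all still called.

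Ccl2, Ccl12, Ccl8 and Cxcl2 did not pass the test in the CD8 cells, at no more than 2.10 CPM in any of the 5 libraries, and Ccl7 was too low to test. Among accepted kidneys, Ccl8 in CD8 cells was at 0.850 to 1.64 CPM at 1 week (n = 3) and 4.73 to 10.5 CPM at 3 weeks (n = 5). At 24 weeks no UMI was found in any of 3 libraries, which allows up to 0.390 to 0.541 CPM (3 counts per library). CD8 cells labelled as recipient spleen at 24 weeks held Ccl8 at 0.707 to 7.51 CPM (n = 3). Neither these times nor these tissue labels were compared by a test, and the reason for the differences was not tested. In the T class of the rejecting kidney, read here as background, Ccl8 stood at 2.35 and 2.53 CPM, and no such background was measured for accepted kidneys.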

How the data were processed

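The authors sorted viable CD45+ cells, made libraries with the 10x Genomics Chromium 3′ kit and counted reads with Cell Ranger against mm10, with no version given in the sources used here. The deposited matrices hold raw UMI counts per gene and cell, after the authors' filters on UMIs, genes and mitochondrial share. UMIs were counted without a length correction. Library tags were read from cell names. No doublet caller was run.

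UMI counts were summed per library and class and divided by class totals for CPM. Edge cases with 0 counts are read against a floor of 3 counts. The main test was edgeR 4.0.16 (R 4.3.3), quasi-likelihood, on plain library totals, over all genes passing filterByExpr, with Benjamini-Hochberg adjustment and a threshold of 0.05. Classes were fitted together with the library as a block. Their SE and p-values therefore rest on the scatter left after class and library, pooled over the 5 classes, NK and T included. For shares, each cell was thinned to 1000 UMIs. Between C1q-only and Ly6c2-only cells, the thinned shares had the same order in R7K2 and R7K3 for every member but Ccl2. The steps were tested on simulated counts, where 94.8% of 4-fold and 25.0% of 2-fold changes between C1q-only and Ly6c2-only classes were recovered (10248 genes). The changed genes were expected above 20 counts in each class and library, at a fixed spread and with no difference between libraries. These rates do not cover members with fewer counts, such as Ccl7 and Ccl8 with 4 UMIs each in Ly6c2-only cells of R7K2. DESeq2 1.42.0, TMM factors, other gates and filters, and left-out libraries were alternatives. Leaving cells high in S100a8 and S100a9 out (at least 20 UMIs of both together) and splitting ungated cells were added after seeing the data.

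The members and gene lists were chosen with earlier results of these data known. Named genes were the 8 members, genes of those lists at 20 CPM or more in a class, and the 3 genes most like each member among genes at 50 CPM or more. Lists gave receptors, upstream cytokines, interferon-induced and NF-kappaB-induced genes, CXCL16 proteases, other chemokines and cell type markers. Promoters came from RefSeq, with 5 of 8 members matched. A few genes of these lists are not reported here by name.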

Additional observations from a re-analysis of the deposited data

Results flagged for a closer look

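In 15 groups of 5 spleen libraries, 2 had a library far above the others. Chance alone sets apart about 1 in 20 groups of normally spread values. In both of these groups 3 of the 5 libraries were at 0, so that rate does not apply to them. Ccl2 in C1q cells of naive spleen was at 23.5 CPM in 1 library, and the next library stood at 1.65 CPM, which are 6 UMIs and 1 UMI. Cxcl9 in Ly6c2 monocytes of naive spleen was at 23.8 CPM in 1 library, and the next stood at 2.00 CPM. The first value is 1 UMI in a library of 9 such cells, below the 71.2 CPM that 3 counts would give there, and the second is 2 UMIs, so nothing can be read from this gap.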

How the results depend on the processing

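Between C1q-only and Ly6c2-only cells 6 members were called, and 2 without the library as a term of the model. Between Arg1-only and Ly6c2-only cells 4 were called, and 0 in DESeq2 and 0 without the library term. Between Arg1-only and C1q-only cells 1 was called, 0 in DESeq2, 0 without the library term, 2 with the gates as first written (Ccl2 and Cxcl2, both higher, with Cxcl9 not called) and 2 with stricter gates (Ccl2 higher, Cxcl9 lower). With gates after thinning the 1 call was Ccl7, higher. Over all genes of this comparison, 35 of 11791 were higher and 11 lower with the gates as first written. With stricter gates 47 of 10093 were higher and 26 lower, and with gates after thinning 52 of 10166 and 17. The sign turned for Ccl12 (0.16) and Ccl8 (0.54) between Arg1 and C1q cells with the gates as first written, for Cxcl9 (0.10) between Arg1-only and Ly6c2-only cells with gates after thinning, for Ccl2 (0.0083) between C1q-only and Ly6c2-only cells in DESeq2, and in the CD8 cells for Ccl8 (-0.20 with TMM factors, -0.19 in DESeq2) and for Cxcl2 (0.15) without R7K3, where it was -1.21 without R7K2. None of these had been called except Cxcl9, and the cause was not tested. Counts over all genes went from 1273 to 534 in DESeq2 and 101 without the library term, from 120 to 5 without that term and 203 with the gates as first written, and from 54 to 16 in DESeq2, 30 with TMM factors and 4 without that term. In the tissue comparisons they went from 4425 to 2890 without R7K2 and 2881 without R7K3, from 2143 to 1359 and 1226 and to 3719 with no filter on low counts, and from 3522 to 2153 without R7K3. Of the fold changes of members under other settings, 425 were counted as the same, 21 as moved, 11 passed the threshold newly, 29 lost it and 7 turned. For refits, the same meant an unchanged direction and side of the threshold. For a single kidney library's value between classes, it meant within 1 SE of the main fit. Such values were counted as turned only where the main fit was called. The opposite class orders of Ccl2 and Cxcl9 in R7K2 and R7K3 are therefore not among the 7. Of 48 shares of cells under other thinning or gates, 34 moved beyond their interval. The filter on cells removed no kidney cell. Within the kidney, leaving out 1 of 2 libraries leaves no replicate, so only each library's values are given. The classes of the kidney were paired within libraries by that term. Kidney and spleen libraries share no replicate number in the labels and were not paired. Among the classes compared within the kidney, the class total of UMIs was lowest in Arg1-only cells, where 3 counts are 82.6 CPM in R7K2 and 33.2 CPM in R7K3.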
